A study of Mus musculus with 6 samples.

Results

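Cholesterol synthesis and fatty acid desaturation were followed through 4 genes: Srebf2, Nsdhl, Sc5d and Scd2. They belong to 9519 genes that could be read by position from counts of mouse kidney RNA, of which 5246 had enough counts to be tested. The 4 were selected on their fold changes between the groups compared here, which were already known, so their levels and fold changes are a description and carry no test.

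Cells make cholesterol from acetyl-CoA through the mevalonate pathway. Its late steps trim and rearrange the sterol ring in the endoplasmic reticulum. When sterols in that membrane run low, sterol regulatory element-binding proteins are carried to the Golgi by their escort Scap, cut there, and sent to the nucleus, where they switch on genes of sterol synthesis, lipoprotein uptake and fatty acid synthesis. Stearoyl-CoA desaturases put a double bond into saturated fatty acids, which the kidney uses in membrane phospholipids and stored lipid.

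The tissue was whole kidney of C57BL/6 mice, a standard inbred strain, at postnatal day 21. The labels put 3 libraries under a diagnosis of acute renal failure (called ARF here, titled treat) and 3 under healthy (titled control). The cause of renal failure is not labelled, and nothing states that each library is a different animal. The p-values therefore rest on a spread between libraries that may not be a spread between animals. Total counts were 5455886 to 6191479 in ARF libraries and 2873370 to 5710010 in healthy libraries. The levels of markers of different parts of the kidney also differed between groups. All 7 collecting duct markers that could be read, of 12 listed, were higher in ARF, with a summed level of 13633 to 16031 CPM (counts scaled to the total count of the library) in ARF libraries and 4260 to 5033 CPM in healthy libraries. Of 7 proximal tubule markers read, of 14 listed, 6 were lower, with sums of 2898 to 4231 CPM in ARF libraries and 6585 to 10357 CPM in healthy libraries. By edgeR's quasi-likelihood test at an adjusted p under 0.05, 25.1% of all tested genes were higher in ARF and 24.9% were lower. In bulk RNA like this, fewer cells of a type and less marker RNA per cell cannot be told apart. The part of these marker shifts in the results below was not tested.

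Each gene was counted over only some of its exon bases, because the deposited rows were read by their intervals, and 4 of the 5 rows on these genes are named for another gene. Coordinates are those of the mouse assembly GRCm38. Srebf2 (ENSMUSG00000022463.8, plus strand of chr15:82147181-82205379) was read over 696 of 5077 exon bases, all coding. Nsdhl (ENSMUSG00000031349.4, plus strand of chrX:72918557-72958514) was read over 55 of 2168 exon bases, also coding. Sc5d (ENSMUSG00000032018.14, minus strand of chr9:42251595-42264256) was read over 436 of 4866 exon bases, all in its 3′UTR. Scd2 (ENSMUSG00000025203.6, plus strand of chr19:44293674-44306864) was read over 1419 of 5455 exon bases in 2 rows, 1 at its 5′ end and 1 in its 3′UTR. A level can thus be compared between libraries, but not between genes. The rows also cover introns: 7623 intronic bases in Srebf2, 7570 in Nsdhl, 871 in Sc5d, and 609 and 777 in the 5′ and 3′ rows of Scd2. Of the 7411 bases of the Sc5d row 6104 lie outside the gene, as do 3834 of the 5464 bases of the 5′ row of Scd2 and 480 of the 8105 bases of the Nsdhl row. Fragments of unspliced RNA, or of RNA from outside the gene, in those bases cannot be told apart from mRNA of the gene in the counts.

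**Figure D1:**
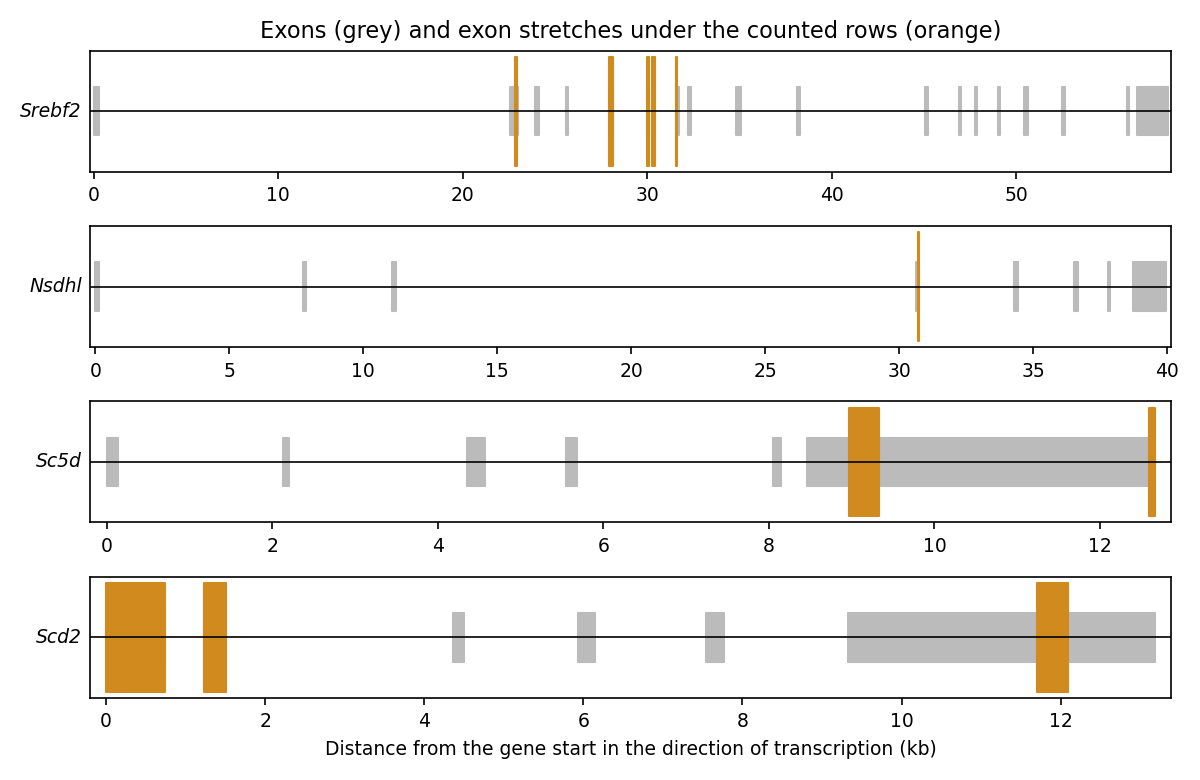
Exon models of the 4 genes, drawn from the gene start in the direction of transcription (kb), with exons in grey and the exon stretches under the counted rows in orange. The stretches cover 13.7% of the exon bases of Srebf2, 2.54% of Nsdhl, 8.96% of Sc5d and 26.0% of Scd2.

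The stretch that carries the whole reading of Nsdhl is shown first, since no other exon base of that gene was counted. It lies at chrX:72949257-72949311 on the plus strand.
Nsdhl: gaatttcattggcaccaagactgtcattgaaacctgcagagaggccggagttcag
The longest of the 5 Srebf2 stretches, at chr15:82175097-82175318 on the plus strand, has 222 bases and encodes the beginning of the basic helix-loop-helix region with which the protein binds DNA.
Srebf2: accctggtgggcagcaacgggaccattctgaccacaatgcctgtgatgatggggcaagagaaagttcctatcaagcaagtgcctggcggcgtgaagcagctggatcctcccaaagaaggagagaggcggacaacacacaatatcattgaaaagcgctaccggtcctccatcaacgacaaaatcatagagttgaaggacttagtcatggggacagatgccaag
For Scd2, the stretch that its closest copies could share matters most, because the desaturase genes lie side by side on the chromosome. Of its 283-base stretch of coding sequence, 169 bases at chr19:44295018-44295186 aligned without gaps to Scd1 at 91.1% identity. Capitals mark the 15 bases at which Scd1 has another base.
Scd2: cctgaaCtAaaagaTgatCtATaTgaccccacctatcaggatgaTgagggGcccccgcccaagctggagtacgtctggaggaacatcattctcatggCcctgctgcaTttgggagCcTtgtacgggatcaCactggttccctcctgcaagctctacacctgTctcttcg
The longest run identical to Scd1 there was 46 bases. Scd3 aligned to the same 283-base stretch over 263 bases at 86.7% identity, with 2 gaps and a longest identical run of 62 bases. Scd4 aligned to it over 177 bases at 91.0% identity, with a longest identical run of 38 bases. The other stretches of Scd2, in its 5′UTR and 3′UTR, aligned to Scd1, Scd3 or Scd4 over at most 49 bases.

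Promoter sequences of Srebf2, Nsdhl and Sc5d are shown because the 3 genes were lower together in ARF. They come from RefSeq (assembly GRCm38.p6), whose gene starts differ from those of the gene coordinates given above. The windows run from 250 bases before to 50 bases after the RefSeq start, at chr15:82147019-82147318 (plus strand), chrX:72918271-72918570 (plus strand) and chr9:42264251-42264550 (minus strand). Capitals mark CCAAT (the box bound by nuclear factor Y), GGGCGG (the core bound by Sp1), CACGTG (an E-box) and ATCACCC (a sterol regulatory element-like letter string), each in either orientation and with no overlaps.
Srebf2: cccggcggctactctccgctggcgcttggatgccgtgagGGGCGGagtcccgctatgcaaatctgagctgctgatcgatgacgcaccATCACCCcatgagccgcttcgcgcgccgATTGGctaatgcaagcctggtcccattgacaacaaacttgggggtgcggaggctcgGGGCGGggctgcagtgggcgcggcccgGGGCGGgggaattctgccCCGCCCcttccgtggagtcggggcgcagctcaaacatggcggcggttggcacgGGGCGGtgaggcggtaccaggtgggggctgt
Nsdhl: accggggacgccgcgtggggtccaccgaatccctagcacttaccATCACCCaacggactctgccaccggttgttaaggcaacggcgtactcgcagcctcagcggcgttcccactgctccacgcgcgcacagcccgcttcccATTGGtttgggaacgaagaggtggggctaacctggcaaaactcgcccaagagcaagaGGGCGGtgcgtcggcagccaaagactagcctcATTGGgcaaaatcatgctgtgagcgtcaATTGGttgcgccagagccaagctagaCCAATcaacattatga
Sc5d: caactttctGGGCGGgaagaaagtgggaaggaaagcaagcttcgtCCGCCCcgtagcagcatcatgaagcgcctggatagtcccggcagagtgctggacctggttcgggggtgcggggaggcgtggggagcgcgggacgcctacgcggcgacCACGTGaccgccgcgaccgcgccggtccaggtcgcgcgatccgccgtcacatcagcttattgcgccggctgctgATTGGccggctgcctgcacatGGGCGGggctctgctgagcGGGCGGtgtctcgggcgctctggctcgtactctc
All 3 windows held the CCAAT box and the Sp1 core. The Nsdhl window held 4 CCAAT boxes and 1 Sp1 core. The Srebf2 window held 5 Sp1 cores and 1 CCAAT box, and the Sc5d window held 4 Sp1 cores and 1 CCAAT box. Over all 32851 RefSeq windows of this length, 37.4% held the CCAAT box and 35.7% held the Sp1 core. The sterol element-like string was found once in the Srebf2 window and once in the Nsdhl window, against 2.69% of all windows, and was searched for after these sequences had been seen. The E-box occurred once in the Sc5d window and in 7.15% of all windows. The string CACCCCAC, a sterol regulatory element of textbook promoters, was found in none of the 3 and in 2.87% of all windows. A match is a string of letters and not a binding site.

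Srebf2, the sterol-regulated transcription factor itself, was lower in ARF. Its level was 119, 110 and 137 CPM in ARF libraries, against 220, 205 and 184 CPM in healthy libraries. Every ARF library lay below every healthy library, which 62.4% of all tested genes showed in 1 direction or the other and 22.4% showed as lower in ARF. The mean was 122 ± 13.9 CPM in ARF and 203 ± 18.2 CPM in healthy (SD, n = 3 each), a log2 fold change of -0.91 (SE 0.12, ARF minus healthy). Of 5246 tested genes, 832 had a smaller, that is more negative, log2 fold change.

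Nsdhl, the dehydrogenase that works with a methyl oxidase to strip methyl groups from the sterol ring, was also lower. It stood at 11.9, 11.2 and 17.4 CPM in ARF libraries and at 18.7, 19.1 and 20.9 CPM in healthy libraries. The groups did not overlap, which 22.4% of all tested genes showed as lower in ARF. The highest ARF library came close to the lowest healthy library. The counts behind these values were 65, 62 and 108 in ARF libraries and 107, 55 and 76 in healthy libraries, the fewest of the 4 genes. The log2 fold change was -0.71 (SE 0.20), and it was -0.91 without ARF replicate 3.

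Sc5d, the sterol desaturase that acts near the end of the pathway, differed least. Its level was 42.5, 43.4 and 54.3 CPM in ARF libraries, against 59.5, 57.1 and 53.4 CPM in healthy libraries. ARF replicate 3 lay above healthy replicate 3, so the groups overlapped in CPM. They did not overlap after TMM scaling, where 60.2% of tested genes did not overlap, 31.1% as higher and 29.1% as lower in ARF. The log2 fold change was -0.45 (SE 0.13) with TMM scaling and -0.28 with scaling by total count alone.

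Scd2, a stearoyl-CoA desaturase known in mice chiefly from the brain and from newborn skin and liver, was higher in ARF. It stood at 1338, 1525 and 1349 CPM in ARF libraries and at 177, 219 and 123 CPM in healthy libraries. The lowest ARF library was far above the highest healthy library, and 40.0% of all tested genes were higher in ARF without overlap. The mean was 1404 ± 105 CPM in ARF and 173 ± 48.2 CPM in healthy (SD, n = 3 each), and the log2 fold change was 2.85 (SE 0.21). Only 49 of the 5246 tested genes had a larger one.

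The 2 rows of Scd2 lie at opposite ends of the transcript and can be read separately. The 5′ row, with 1021 exon bases in the 5′UTR and the start of the coding sequence, had 681, 808 and 721 CPM in ARF libraries and 79.0, 104 and 54.8 CPM in healthy libraries. The 3′UTR row, with 398 exon bases, had 657, 717 and 629 CPM in ARF libraries and 97.7, 115 and 68.0 CPM in healthy libraries. Both ends were higher in every ARF library, with a ratio of mean CPM of 9.27 at the 5′ end and 7.15 in the 3′UTR. The rows are stretches of the same gene and not replicates.

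**Figure D2:**
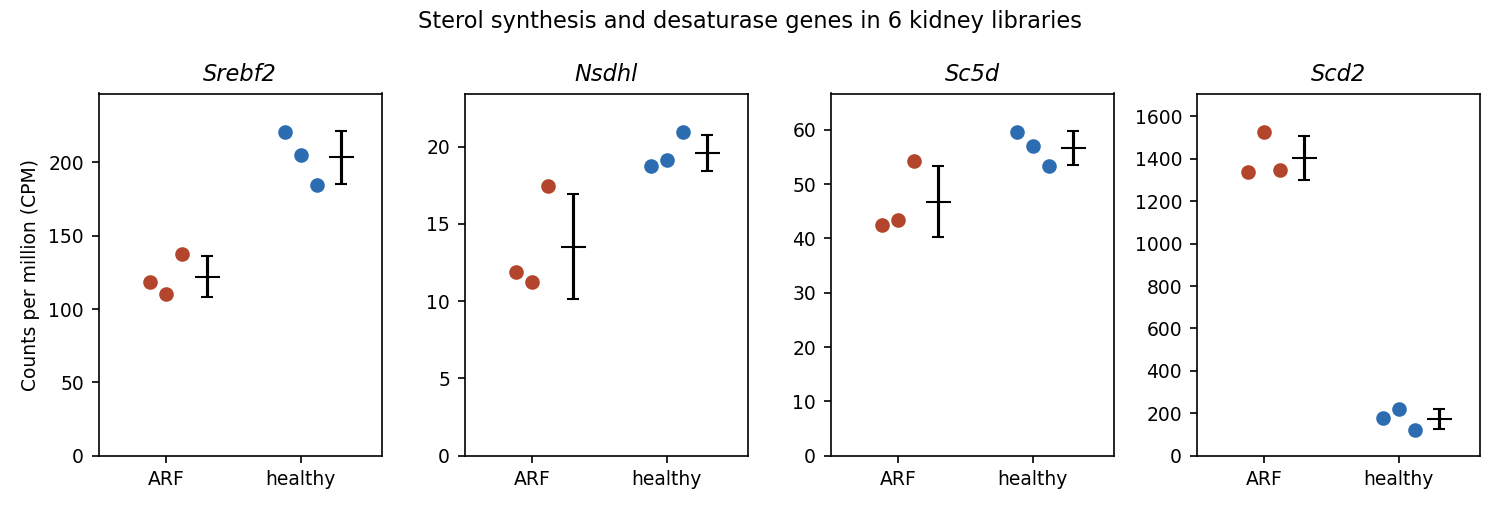
Level in CPM (linear axis from 0, a separate scale for each gene) of Srebf2, Nsdhl, Sc5d and Scd2 in each of 3 ARF libraries (left) and 3 healthy libraries (right), with points for libraries and, beside them, the group mean ± SD. Srebf2 and Nsdhl lie lower and Scd2 higher in all ARF libraries, while Sc5d overlaps at 54.3 CPM in ARF replicate 3 and 53.4 CPM in healthy replicate 3.

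Within groups, the spread also differed between genes. The coefficient of variation of CPM was 11.4% for Srebf2, 25.2% for Nsdhl, 14.0% for Sc5d and 7.46% for Scd2 in ARF libraries. In healthy libraries it was 8.95%, 5.95%, 5.43% and 27.9% for the same genes in that order. ARF replicate 3 was the highest ARF library for Srebf2, Nsdhl and Sc5d, and healthy replicate 2 the highest healthy library for Scd2.

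Each of these libraries also held the most RNA of the adrenal cortex in its group, a tissue beside the kidney that makes steroid hormones from cholesterol. The 3 adrenal cortex markers that could be read, of 9 listed, were Cyp21a1, Cyp11a1 and Cyp11b2, enzymes of steroid hormone synthesis. Their sum was 113, 0.905 and 2541 CPM in ARF libraries and 651, 1814 and 3.03 CPM in healthy libraries, which spans the same range in both groups. Cyp11a1 and Cyp11b2 were at 0 in ARF replicate 2 and healthy replicate 3. Between those 2 libraries, Srebf2 stood at 110 CPM in ARF and 184 CPM in healthy, Nsdhl at 11.2 and 20.9 CPM, Sc5d at 43.4 and 53.4 CPM, and Scd2 at 1525 and 123 CPM, ARF given first. That sets a single library against a single library. ARF replicate 2 was the lowest ARF library for Srebf2 and Nsdhl and the highest for Scd2. Healthy replicate 3 was the highest healthy library for Nsdhl and the lowest for Srebf2, Sc5d and Scd2. ARF replicate 3 and healthy replicate 2 were also both left out, a choice made after the data were seen. The log2 fold changes were then -1.01 for Srebf2, -0.96 for Nsdhl, -0.58 for Sc5d and 3.07 for Scd2. Healthy replicate 1, which was kept, still held 651 CPM of adrenal cortex markers, against 113 CPM in ARF replicate 1. The part of adrenal RNA in the differences between the groups was not tested.

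Healthy replicate 2 further held the most RNA of fat cells, whose main stearoyl-CoA desaturase is Scd1. The 3 adipocyte markers read, of 10 listed, summed to 27.1, 34.9 and 52.3 CPM in ARF libraries and to 38.5, 357 and 86.5 CPM in healthy libraries, and Lep, the gene of the fat hormone leptin, reached 265 CPM in healthy replicate 2. Scd1 stood at 172, 143 and 349 CPM in ARF libraries and at 66.0, 1538 and 242 CPM in healthy libraries. The groups overlapped, and by edgeR's quasi-likelihood test Scd1 was not called (log2 fold change -1.63, SE 0.92, adjusted p = 0.171). That value rested on healthy replicate 2: without it, the log2 fold change was 0.33. Without healthy replicate 1 it was -2.18 and passed the test (adjusted p = 0.0337). Scd2, in contrast, had a log2 fold change of 3.02 without healthy replicate 2. In that library, the 5′ row of Scd2 had 104 CPM beside 1538 CPM of Scd1. It also had the highest adrenal cortex sum of the healthy group. The part of fat or adrenal RNA in the Scd1 levels was not tested. Scd3 and Scd4, the other copies, had at most 2 counts in any library and were not tested.

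**Figure D3:**
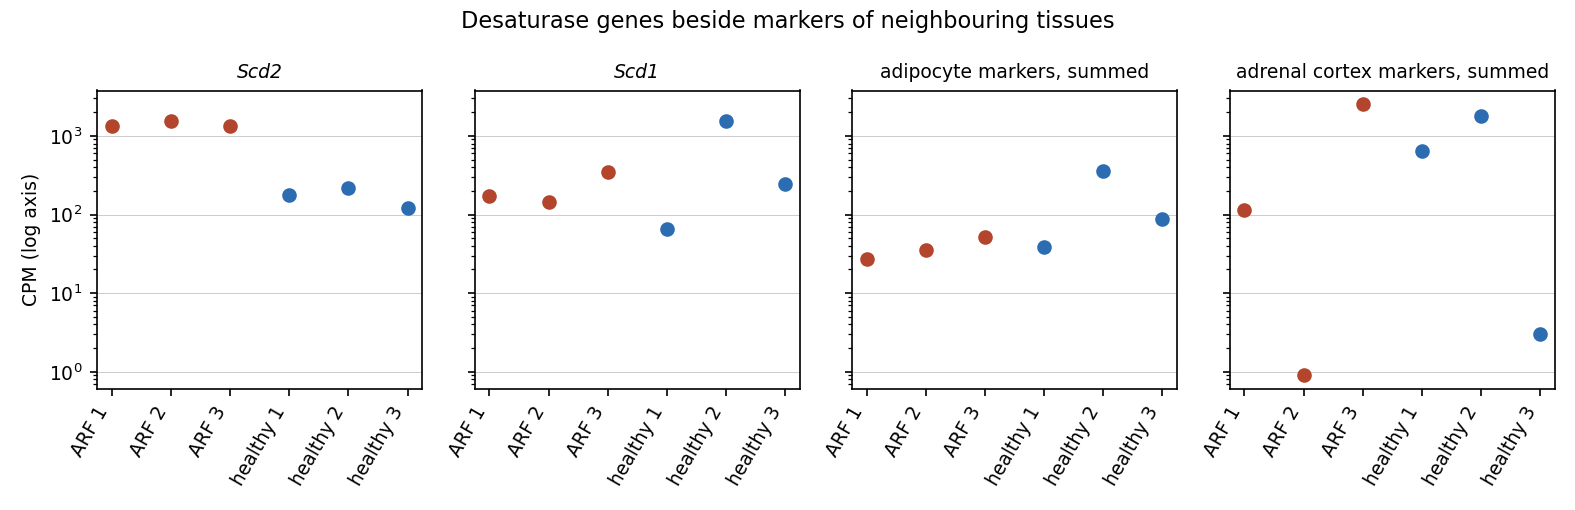
CPM on a log axis of Scd2, Scd1, and the summed adipocyte and adrenal cortex markers in the 6 libraries, ARF 1 to 3 on the left and healthy 1 to 3 on the right. Scd2 splits the groups, while Scd1 peaks at 1538 CPM in healthy replicate 2, where the adipocyte sum also peaks at 357 CPM. The adrenal cortex sum of that library, 1814 CPM, is the highest of the healthy group.

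Markers of other cell types that could bring such RNA were read as well. Of 2 hepatocyte markers read, Cyp7a1 was at 0 in all libraries and the sum stayed at or below 0.367 CPM in ARF and 0.525 CPM in healthy libraries. The sum of 5 macrophage markers of 9 was 25.03 to 32.9 CPM in ARF libraries and 46.6 to 91.5 CPM in healthy libraries, and 4 of the 5 were lower in ARF. The sum of 5 neutrophil and erythroid markers of 9 was 35.6 to 82.0 CPM in ARF libraries and 209 to 916 CPM in healthy libraries. The part of macrophages and blood cells in the lower Srebf2, Nsdhl and Sc5d was not tested.

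The genes with the most similar pattern to each of the 4 were found by Pearson correlation of log2(CPM + 1) over the 6 libraries, among 5242 tested genes. These 6 points fall into the 2 groups, so a high r mostly says that a gene splits the groups alike. Nearest to Srebf2 were Zdhhc18, Camk2n2 and Mmp14 (r = 0.999, 0.998 and 0.994), and 479 genes had r above 0.9. Nearest to Nsdhl were Gria3, Cyb561d1 and Fkbp5 (r = 0.995, 0.993 and 0.989), with 152 genes above 0.9. Nearest to Sc5d were Gpsm2, Nadk and Tnfaip2 (r = 0.991, 0.986 and 0.983), with 70 genes above 0.9. Nearest to Scd2 were Slx1b, the potassium channel gene Kcnj1 and the ammonium transporter gene Rhbg (r = 0.999, 0.998 and 0.998), with 1261 genes above 0.9. Kcnj1 and Rhbg are genes of the distal nephron and collecting duct. All 7 collecting duct markers read, of 12 listed, were higher in ARF, beside 25.1% of all tested genes. The part of collecting duct RNA in the higher Scd2 was not tested. Markers of the distal tubule and loop of Henle did not move as 1 set. Of 3 distal tubule markers read, of 6 listed, 1 was higher in ARF and 2 were lower. Of 2 loop of Henle markers read, of 7 listed, only Kcnj1 itself was called, as higher. Kcnj1 stood at 184, 194 and 197 CPM in ARF libraries and at 11.6, 18.4 and 8.81 CPM in healthy libraries.

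The wider pathway was read from 7 lists of 142 genes, of which 46 could be read and 38 besides the 4 genes were tested. By edgeR's quasi-likelihood test at an adjusted p under 0.05, 11 of these 38 were higher in ARF, 6 were lower and 21 were not called. That is 44.7% called, against 50.0% of all 5246 tested genes (25.1% higher and 24.9% lower). The median log2 fold change of the 38 was -0.12, beside 0.01 over all genes. The lists as a whole thus showed a share of calls near the background, and what follows is about single genes.

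Of 23 sterol synthesis genes, only Nsdhl, Sc5d and Mvk could be read with their rows to themselves. Mvk, mevalonate kinase, had 3 to 10 counts a library and was not tested. A further 6 had rows that also touch exons of another gene, with 50% to 90% of the exon bases their own, and were looked at after the values of the 4 genes were known. With those rows allowed, 50.6% of 6880 tested genes were called (24.5% higher and 26.1% lower). Of the 6 sterol genes, 2 were lower, none was higher and 4 were not called. Lbr, a sterol reductase of the nuclear envelope, stood at 68.4, 66.1 and 63.5 CPM in ARF libraries and at 132, 121 and 170 CPM in healthy libraries (log2 fold change -1.29, SE 0.14, adjusted p = 0.000192, edgeR). Every ARF library lay below every healthy library for Lbr. Without the shared rows, 22.4% of tested genes showed this, and the share with them was not counted. Of the exon bases under the Lbr row, 16.8% belong to another gene. Fdft1, Lss and Acat2 had log2 fold changes of -0.31, 0.29 and -0.42 and were not called. Fdft1 and Acat2 lay at the threshold (adjusted p = 0.05003 and 0.0517, edgeR), while Lss had an adjusted p of 0.0723 (edgeR).

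Among regulators of the sterol response, 2 of 7 tested genes were higher and 1 was lower, with a median log2 fold change of -0.10. Scap, the escort that carries the Srebf2 product to the Golgi, stood at 213, 215 and 243 CPM in ARF libraries and at 142, 144 and 130 CPM in healthy libraries (log2 fold change 0.52, SE 0.10, adjusted p = 0.00340, edgeR). With rows shared between genes allowed, Scap was no longer called (log2 fold change 0.06). Nfyc, a subunit of nuclear factor Y, was higher (log2 fold change 0.49), and Sp1 was lower (log2 fold change -0.54). March6, a ubiquitin ligase that acts on sterol enzymes, had a log2 fold change of -0.19 and was not called. Srebf1, the paralog of Srebf2, could not be read with a row of its own.

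Cholesterol uptake and efflux gave 3 of 9 tested genes higher and 2 lower, with a median log2 fold change of -0.20. Vldlr, a receptor for very-low-density lipoprotein, stood at 77.7, 71.3 and 75.9 CPM in ARF libraries and at 167, 132 and 162 CPM in healthy libraries (log2 fold change -1.21, SE 0.12, adjusted p = 0.000102, edgeR). Mylip, a ubiquitin ligase that sends lipoprotein receptors to degradation, was higher, at 50.0, 45.2 and 49.1 CPM in ARF libraries and 19.1, 20.2 and 12.7 CPM in healthy libraries (log2 fold change 1.30, SE 0.18, adjusted p = 0.000462, edgeR). Abca1, the pump that exports cholesterol to lipoproteins, was higher, at 1043, 977 and 1175 CPM in ARF libraries and 453, 566 and 517 CPM in healthy libraries (log2 fold change 0.88, SE 0.12, adjusted p = 0.000569, edgeR). The groups overlapped in CPM for none of Vldlr, Mylip and Abca1, as for 62.4% of all tested genes (40.0% higher and 22.4% lower in ARF). Gramd1c, a carrier of cholesterol between membranes, was also higher (log2 fold change 0.65). Lrp1, Lrp2, Scarb2 and Soat1 had log2 fold changes of -0.29, 0.17, -0.20 and -0.38 and were not called.

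**Figure D4:**
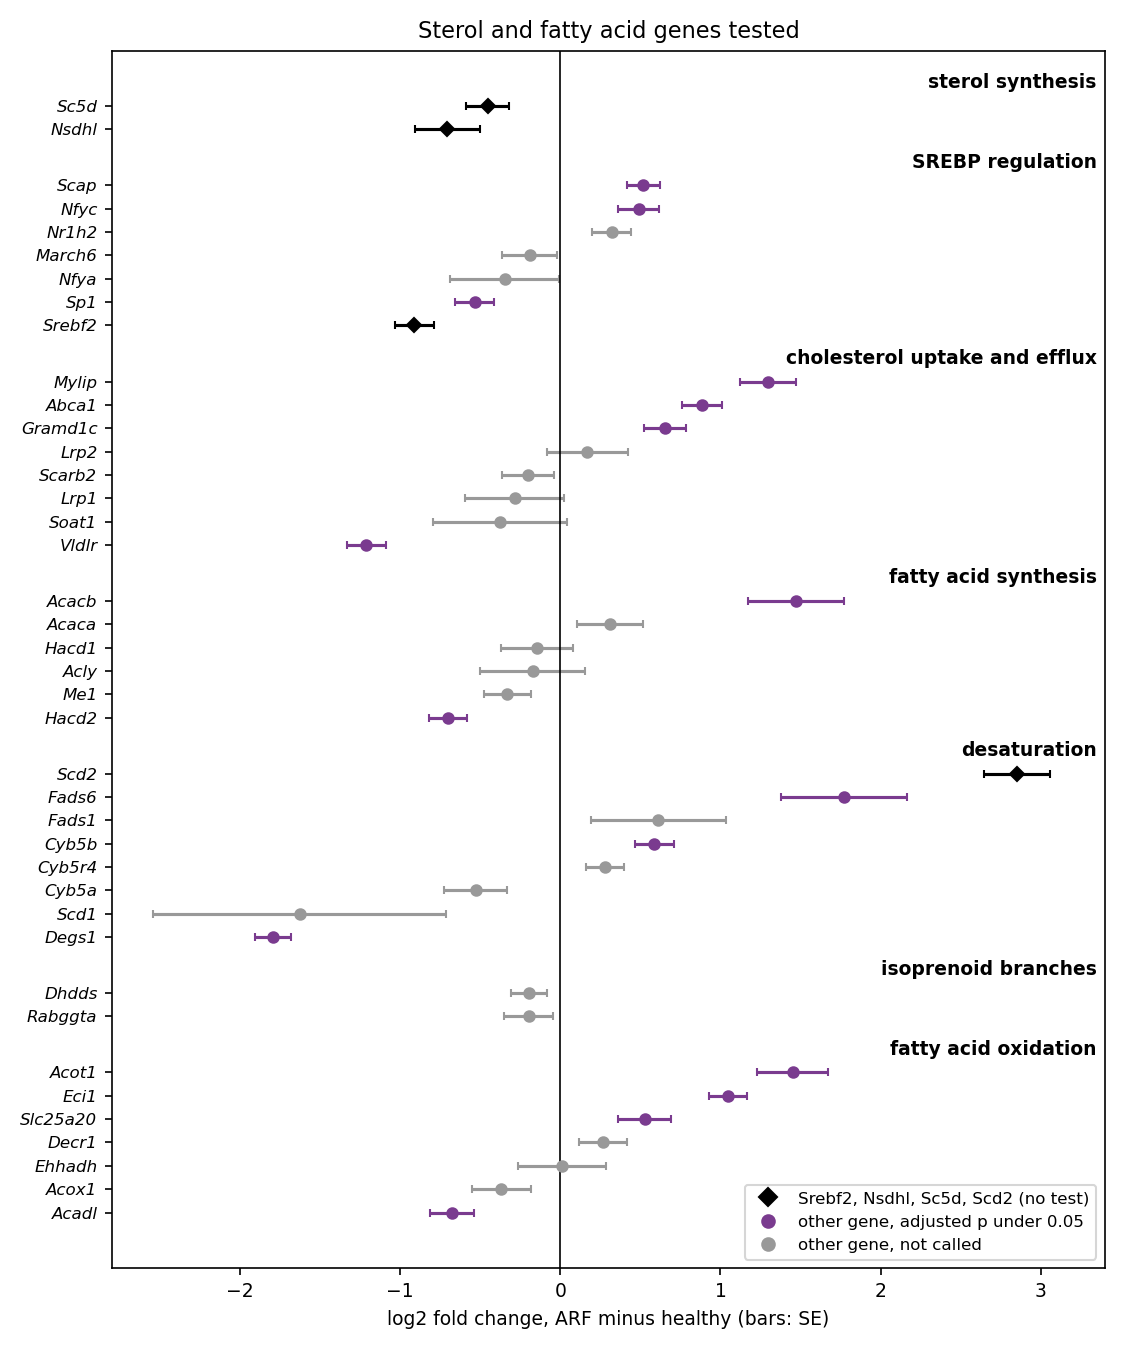
Log2 fold change (ARF minus healthy, bars are the SE) of the 4 genes and the 36 of the 38 other tested genes of 7 lists, with black diamonds for the 4 genes, which were not tested, purple points for genes called at an adjusted p under 0.05 and grey points for genes not called. Scd2 lies farthest right at 2.85, and Degs1 farthest left at -1.79.

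In desaturation and its electron supply, 2 of 7 tested genes other than Scd2 were higher and 1 was lower, with a median log2 fold change of 0.28. Degs1, which puts the double bond into ceramide, stood at 75.0, 76.7 and 72.0 CPM in ARF libraries and at 236, 207 and 244 CPM in healthy libraries (log2 fold change -1.79, SE 0.11, adjusted p = 1.21e-05, edgeR). Scd2 and Degs1 thus lay at opposite ends, although both are desaturases of the endoplasmic reticulum. Fads6, a member of the fatty acid desaturase family, was higher (log2 fold change 1.77, SE 0.39), and so was Cyb5b, an electron carrier of the mitochondrial outer membrane (log2 fold change 0.59, SE 0.12). Fads1, which desaturates polyunsaturated fatty acids, had a log2 fold change of 0.61 and was not called. Cyb5a, the electron donor in the endoplasmic reticulum, had a log2 fold change of -0.53 and lay at the threshold (adjusted p = 0.0504, edgeR).

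In fatty acid synthesis, 1 of 6 tested genes was higher, 1 was lower and 4 were not called, with a median log2 fold change of -0.16. Acacb, the acetyl-CoA carboxylase whose product holds back fatty acid oxidation, stood at 95.1, 76.0 and 108 CPM in ARF libraries and at 22.1, 48.4 and 20.7 CPM in healthy libraries (log2 fold change 1.47, SE 0.30, adjusted p = 0.00387, edgeR). Hacd2, a dehydratase of fatty acid elongation, was lower (log2 fold change -0.70, SE 0.12). Acaca, Acly, Me1 and Hacd1 had log2 fold changes of 0.31, -0.17, -0.33 and -0.15 and were not called. Without healthy replicate 2, Acaca (0.53, adjusted p = 0.0392) and Me1 (-0.44, adjusted p = 0.0432) passed the edgeR test.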

How the data were processed

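Total RNA of mouse kidney was harvested in Trizol, and a TruSeq kit was used for library construction, per the labels' protocols. The authors deposited raw counts per row; per the file headers, pairs with both ends aligned were counted over exons with featureCounts 2.0.1, ignoring strand. Bowtie 0.12.2 and mm9 stand in the submitters' processing notes, and the design text names BWA and TopHat. Which aligner gave these counts is not stated there.

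Many row intervals lie on exons of a gene other than the one in the row's name, so rows were named by position. A row went to the GRCm38 gene (GENCODE M21 basic) holding a share of 0.9 or more, and 25 or more, of the exon bases it overlapped (bedtools 2.31.1, Python 3.11.15, pandas 2.3.3), and counts were summed by gene. Of 53546 rows, 12401 were named, for 9519 genes and 63.0% of the counts. Reads of overlapping genes on the other strand can be included.

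Genes were tested with edgeR 4.0.16 (R 4.3.3): quasi-likelihood test, two-sided, TMM, filterByExpr, library totals over all rows, group as the only term, Benjamini-Hochberg adjusted p under 0.05. CPM is relative to the total count without TMM. The SE, for the 4 genes too, is the absolute log2 fold change divided by the square root of the edgeR F statistic. Alternatives were RLE size factors, total scaling, DESeq2 1.42.0, no filter, a replicate block, shares of 0.5 and 1, at least 100 bases, and leaving out each library. The 4 genes and the lists were chosen with earlier results of these data known. Genes named are the 4, their paralogs, the called genes of each list (at most 6 a direction), up to 4 uncalled ones with the highest CPM, the 3 most similar to each of the 4 and the leading markers; Lbr, Fdft1, Lss and Acat2 fall outside this rule. Some genes counted in the lists are not reported by name here.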

Additional observations from a re-analysis of the deposited data

How the results depend on the processing

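The direction of all 4 genes was the same in every setting run that gave a value. Srebf2 moved to -0.74 and Sc5d to -0.28 with scaling by total count, under which the median over all genes was 0.19, against 0.01 with TMM. That scaling called 1749 genes higher and 1013 lower, against 1319 and 1305 with TMM. Nsdhl was -0.96 without ARF replicate 3 and healthy replicate 2, and could not be read when 100 exon bases were required. Leaving out each library in turn gave -1.005 to -0.84 for Srebf2, -0.91 to -0.59 for Nsdhl, -0.55 to -0.37 for Sc5d and 2.63 to 3.02 for Scd2. It gave 985 to 1183 genes higher and 1120 to 1313 lower among all genes, and 10 to 12 higher and 6 to 10 lower among the 38 pathway genes, the 10 without healthy replicate 2. The count of lower pathway genes was 12 with rows shared between genes allowed. Same-numbered libraries did not deviate together (correlations -0.07, -0.22 and -0.29). With 3 libraries a group, these values cannot tell whether the numbers stand for a shared batch. The fit with the replicate block called 1135 genes higher and 1153 lower and kept 11 and 6 pathway genes. It gave -0.91, -0.73, -0.46 and 2.88 for Srebf2, Nsdhl, Sc5d and Scd2. DESeq2 called 1235 higher and 1310 lower. Among single pathway genes, Nfyc lost its call without ARF replicate 3 and healthy replicate 2 (adjusted p = 0.0771, edgeR). Nr1h2 gained one without ARF replicate 1, with total count scaling and with a share of 1 (adjusted p = 0.0339, 0.00905 and 0.0471, edgeR). Cyb5a gained one with RLE size factors, with DESeq2 and with a share of 0.5. It also gained one without healthy replicate 2, whether ARF replicate 3 was kept or not. Depth limits Nsdhl most, with 55 counts in its lowest library.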

Other observations

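Fatty acid oxidation, the opposite path to synthesis, was read for 7 of 27 listed genes. By edgeR's quasi-likelihood test 3 were higher in ARF, 1 was lower and 3 were not called, with a median log2 fold change of 0.27. Eci1, a mitochondrial isomerase needed to oxidise unsaturated fatty acids, stood at 186, 230 and 212 CPM in ARF libraries and at 83.9, 90.1 and 95.8 CPM in healthy libraries (log2 fold change 1.05, SE 0.12, adjusted p = 0.000196, edgeR). Acot1, a cytosolic acyl-CoA thioesterase, stood at 47.8, 34.9 and 50.9 CPM in ARF libraries and at 16.6, 9.74 and 16.0 CPM in healthy libraries (log2 fold change 1.45, SE 0.22). Acadl, the long-chain acyl-CoA dehydrogenase, was lower, at 172, 155 and 183 CPM in ARF libraries and 281, 211 and 229 CPM in healthy libraries (log2 fold change -0.68, SE 0.14). Slc25a20, the carnitine carrier, was higher by 0.53 on the log2 scale (adjusted p = 0.0274, edgeR) and lost its call without ARF replicate 3, healthy replicate 2 or healthy replicate 3 (adjusted p = 0.0832, 0.0769 and 0.0929 in that order).

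Of the branches that leave the mevalonate pathway, 2 of 13 listed genes could be read. Dhdds, which builds dolichol, and Rabggta, which attaches prenyl groups to Rab proteins, both had log2 fold changes of -0.20 and were not called. Rabggta passed the test without healthy replicate 2 (log2 fold change -0.36, adjusted p = 0.0463, edgeR).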
